A study of Mus musculus with 12 samples.

Results

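C-type lectin receptors of myeloid cells were examined in 2 populations of colonic phagocytes, resident macrophages (RM) and dendritic cells with surface CD11b (CD11b+ DC), that lacked or retained the transcription factor Runx3. The 8 genes were Clec12a, Clec7a, Clec9a, Clec4d, Clec4e, Clec4n, Clec10a and Mgl2. They were taken by name, as the rows of the deposited array table that carry 1 of these symbols alone, and each had exactly 1 row. They are 8 of the 19938 genes with such a row. The 12 arrays comprised Runx3Δ RM (n = 4), WT RM (n = 3), Runx3Δ CD11b+ DC (n = 3) and WT CD11b+ DC (n = 2). Runx3Δ mice carried Runx3 fl/fl with a CD11c-Cre transgene, which removes floxed exon 3 in cells that express CD11c, and the labels give them as Runx3 -/-. WT littermates are labelled Runx3 +/+. All were untreated C57Bl/6 mice of 6-8 weeks, with males and females pooled. Both populations were sorted from cecum as CD45+ leukocytes positive for CD11c, MHCII and CD11b and negative for Ly6c, and F4/80 then divided them into RM (F4/80+) and CD11b+ DC (F4/80-). Each sample pooled cells of 3 to 4 mice, so the spread between samples is that between pools. Because Cre followed CD11c, other CD11c-expressing cells of these mice were also targets of the deletion.

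C-type lectin receptors bind sugars, lipids and products of dead cells through a shared lectin fold, and macrophages and DC use them to sense fungi, bacteria and damaged tissue. Some activate the kinase Syk, either through a tyrosine motif of their own (Clec7a, also named Dectin-1, a receptor for fungal β-glucan, and Clec9a, a receptor for actin filaments of dead cells) or through the adaptor FcRγ (Clec4e, named Mincle, Clec4d, its partner, and Clec4n, named Dectin-2, a receptor for mannans). Clec12a instead carries an inhibitory tyrosine motif and restrains such signals. Clec10a and Mgl2 are paired receptors for galactose-type sugars on macrophages and DC.

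Of the 8 genes, 6 lie on chromosome 6 in 2 groups. The order was read among protein-coding genes of GRCm38.p6 alone. In it Clec4n, Clec4d and Clec4e follow each other directly, and Clec12a, Clec9a and Clec7a stand close together further along the chromosome. Mgl2 and Clec10a are direct neighbors in this order on chromosome 11. These 2 genes are closely similar copies, so signal shared between their probes could not be separated. RefSeq promoter windows of GRCm38.p6 (250 bases before to 50 after the start of transcription) were matched for 6 of the 8 genes, with 2 windows for Clec7a. The core RUNX motif TGTGGT was searched on both strands. It was found once each in the windows of Clec12a and Clec4e, and in none of the windows of Clec4d, Clec9a, Clec7a and Mgl2. Thus 2 of 7 windows (28.6%) held it, and so did 5506 of 32851 promoter windows of the same length (16.8%). A match of letters is no binding site. Clec12a and Clec7a are printed because their levels varied together, and Clec4e because it holds the other match. The motif is in capitals, and each window is written 5′ to 3′ on the strand of its gene. The first base of the motif stands at -155 from the start in Clec12a (chr6:129349994-129350293, + strand) and at -114 in Clec4e (chr6:123289822-123290121, - strand). The Clec7a window is chr6:129472730-129473029 on the - strand.
Clec12a: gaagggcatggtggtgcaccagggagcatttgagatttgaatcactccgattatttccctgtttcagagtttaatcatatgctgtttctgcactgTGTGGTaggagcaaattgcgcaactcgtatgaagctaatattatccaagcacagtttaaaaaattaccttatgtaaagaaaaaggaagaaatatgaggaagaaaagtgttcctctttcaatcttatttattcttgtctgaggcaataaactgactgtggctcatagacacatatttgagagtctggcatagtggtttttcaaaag
Clec4e: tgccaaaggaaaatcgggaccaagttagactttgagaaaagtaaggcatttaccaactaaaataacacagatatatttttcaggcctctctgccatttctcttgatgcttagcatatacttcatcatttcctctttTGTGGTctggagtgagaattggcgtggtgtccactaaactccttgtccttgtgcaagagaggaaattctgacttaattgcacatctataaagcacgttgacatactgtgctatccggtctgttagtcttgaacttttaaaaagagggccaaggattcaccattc
Clec7a: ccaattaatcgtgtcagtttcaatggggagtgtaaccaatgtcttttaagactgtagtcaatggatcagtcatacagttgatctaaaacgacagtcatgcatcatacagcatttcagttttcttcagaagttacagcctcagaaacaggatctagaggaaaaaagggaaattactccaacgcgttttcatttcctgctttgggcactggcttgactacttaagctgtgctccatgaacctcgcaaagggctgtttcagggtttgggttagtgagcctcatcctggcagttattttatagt

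The sorted cells were checked against their markers, and values are log2 intensities throughout. The mean level of 11 measured macrophage genes was 10.94 to 11.43 in Runx3Δ RM and 11.01 to 11.46 in WT RM, against 9.23 to 9.69 in Runx3Δ and 9.47 to 9.55 in WT CD11b+ DC. That of 11 conventional DC genes was 8.08 to 8.51 and 8.08 to 8.56 in Runx3Δ and WT RM, against 9.94 to 9.97 and 10.08 to 10.21 in Runx3Δ and WT CD11b+ DC. Adgre1, which encodes the F4/80 antigen of the gate, averaged 11.71 and 11.86 in Runx3Δ and WT RM, against 9.41 and 9.73 in Runx3Δ and WT CD11b+ DC. Between genotypes in RM, 2 of the 11 macrophage genes had a difference above 0 (56.4% of all rows), with a median of -0.09. Cx3cr1 averaged 9.85 in Runx3Δ RM and 10.44 in WT RM (-0.59, adjusted p = 0.466 in limma). It alone of the list reached the study's thresholds of 1.5-fold and an unadjusted p up to 0.05. The part of Cx3cr1 in the values of the 8 genes was not tested. All 9 measured B and plasma cell genes were higher in RM, with a median difference of 0.80 in Runx3Δ and 0.89 in WT mice. Among them Cd79a averaged 10.15 and 9.97 in Runx3Δ and WT RM, against 8.83 and 8.75 in CD11b+ DC. The part of these genes in differences between RM and CD11b+ DC was not tested. The Runx3 row averaged 9.94 ± 0.16 (SD, n = 4) in Runx3Δ RM and 9.69 ± 0.19 (SD, n = 3) in WT RM. It combines probes along the gene and does not measure the loss of exon 3. Runx3Δ RM replicate 1 stood apart, with a median correlation of 0.980 with the other RM samples, against 0.984 to 0.988 for each of the others.

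**Figure D1:**
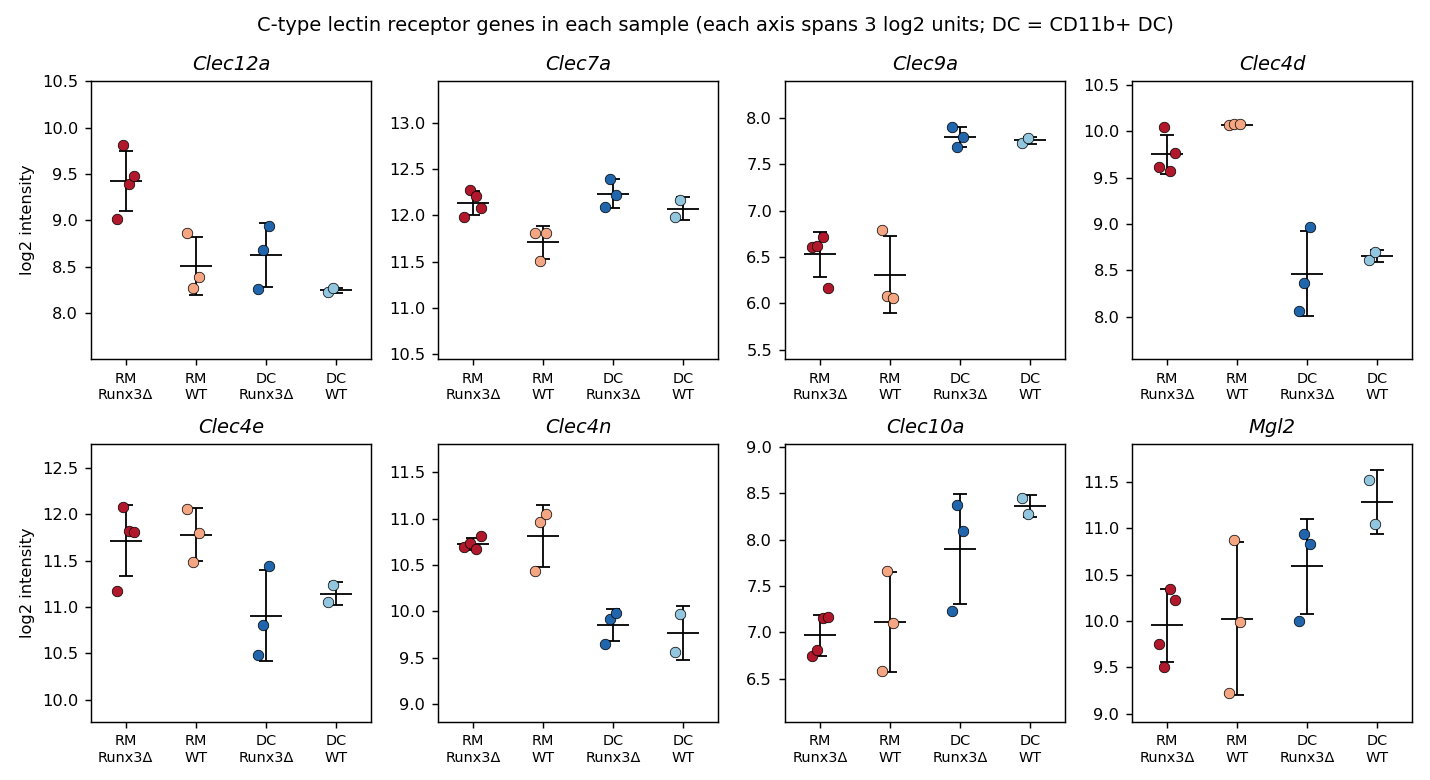
Log2 intensity of the 8 receptor genes in each of the 12 samples. Points are samples, the long bar is the group mean and the whiskers are 1 SD; each vertical axis spans 3 log2 units, and levels of different genes cannot be set against each other. All 4 Runx3Δ RM samples of Clec12a (9.02 to 9.81) lie above the other groups, while Clec4d, Clec4n and Clec9a separate by cell type.

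RM that lacked Runx3 were compared with RM that retained it. Clec12a showed the largest difference of the 8 genes. Its levels were 9.02, 9.81, 9.39 and 9.48 in Runx3Δ RM, against 8.87, 8.27 and 8.39 in WT RM. Every Runx3Δ sample lay above every WT sample, with a gap between the lowest Runx3Δ sample and the highest WT sample that was smaller than the SD of either group. The means were 9.42 ± 0.33 (SD, n = 4) in Runx3Δ RM and 8.51 ± 0.31 (SD, n = 3) in WT RM, a log2 difference of 0.91 (SE 0.21, 95% interval 0.45 to 1.38), or 1.88-fold. In the limma fit over all 35556 rows the unadjusted p was 0.00120 and the Benjamini-Hochberg adjusted p was 0.242, so Clec12a met the thresholds of the study (1.5-fold or more with an unadjusted p up to 0.05) and did not pass the adjusted threshold of 0.05. Without Runx3Δ RM replicate 1 the difference was 1.05 (adjusted p = 0.198 in limma). As these are bulk samples, more cells with Clec12a RNA and more of it per cell cannot be told apart.

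Clec7a, the β-glucan receptor, had levels of 11.98, 12.27, 12.20 and 12.07 in Runx3Δ RM, against 11.81, 11.51 and 11.81 in WT RM. Here too the groups did not overlap. The log2 difference was smaller, 0.43 (SE 0.12, 95% interval 0.17 to 0.68), or 1.34-fold, with an unadjusted p of 0.00380 and an adjusted p of 0.351 in limma, and it fell short of the 1.5-fold threshold. Clec4d, the partner of Mincle, had levels of 9.62, 10.04, 9.58 and 9.76 in Runx3Δ RM, against 10.06, 10.08 and 10.08 in WT RM. The Runx3Δ samples all lay below the WT samples, the nearest by a margin that is only just visible, and the difference was -0.32 (SE 0.18, 95% interval -0.73 to 0.08; adjusted p = 0.711 in limma).

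The other 5 genes overlapped between genotypes in RM. Clec9a differed by 0.22 (95% interval -0.19 to 0.62), Clec4e by -0.06 (-0.61 to 0.49), Clec4n by -0.08 (-0.43 to 0.26), Clec10a by -0.15 (-0.78 to 0.48) and Mgl2 by -0.07 (-0.88 to 0.74), each as Runx3Δ minus WT. WT RM samples were far apart for Mgl2 (9.22, 10.87 and 9.99) and Clec10a (6.58, 7.66 and 7.11), and the intervals of both genes are wide. The Mgl2 difference had either sign with 1 sample left out, -0.47 without WT RM replicate 1 and 0.35 without WT RM replicate 2.

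Over the 8 genes, 0 passed the adjusted threshold in RM in the limma fit, where 5 of all 35556 rows did (0.0141%). In the same fit 2 of the 8 had an unadjusted p under 0.05 (Clec12a and Clec7a), as did 2832 of all 35556 rows. The methods' test, an unmoderated analysis of variance, also called 0 of the 8 genes at the adjusted threshold, which the study did not apply. At the study's own thresholds that test on 4 groups did hold Clec12a (0.91, unadjusted p = 0.00460). At the thresholds of the study 1 gene was higher in Runx3Δ RM (0.728% of all rows) and 0 were lower (0.731% of all rows). The groups did not overlap in 3 of the 8 genes, against 7.55% of all rows. The median difference of the 8 genes was -0.07, beside 0.03 over all rows.

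Levels of other cell types' markers were read beside Clec12a, which monocytes and granulocytes also express. The mean level of 9 monocyte genes was 8.55 to 9.16 in Runx3Δ RM and 8.43 to 8.97 in WT RM. Of these 4 of 9 had a difference above 0 (56.4% of all rows), with a median of -0.01. At the thresholds of the study 2 were higher in Runx3Δ RM, Hp (1.54) and Plac8 (0.80), and 0 were lower (0.728% and 0.731% of all rows). Vcan ran the other way without meeting them, at 5.37 in Runx3Δ RM and 5.96 in WT RM (-0.59). The mean level of 12 granulocyte genes was 5.74 to 5.86 in Runx3Δ RM and 5.58 to 5.70 in WT RM, and did not overlap. Of these granulocyte genes 10 of 12 had a difference above 0 (56.4% of all rows), with a median of 0.18. Levels varied widely within the list. S100a8 was at 4.45 to 4.57 in Runx3Δ RM and 4.20 to 4.48 in WT RM, under the level of 5 used as a filter for dim rows. Mmp9 averaged 10.06 in Runx3Δ RM and 8.90 in WT RM, and was the 1 gene of the list that met the thresholds of the study. Csf3r averaged 9.84 in Runx3Δ RM and 9.62 in WT RM. The mean level of 10 T and NK cell genes was 5.82 to 6.49 in Runx3Δ RM and 5.26 to 5.91 in WT RM. A difference above 0 was seen in 9 of the 10 (56.4% of all rows), with a median of 0.28. Gzma averaged 5.38 in Runx3Δ RM and 4.08 in WT RM (1.30, adjusted p = 0.344 in limma). It was the 1 gene of that list that met the thresholds of the study. The part of these markers in the Clec12a difference was not tested.

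**Figure D2:**
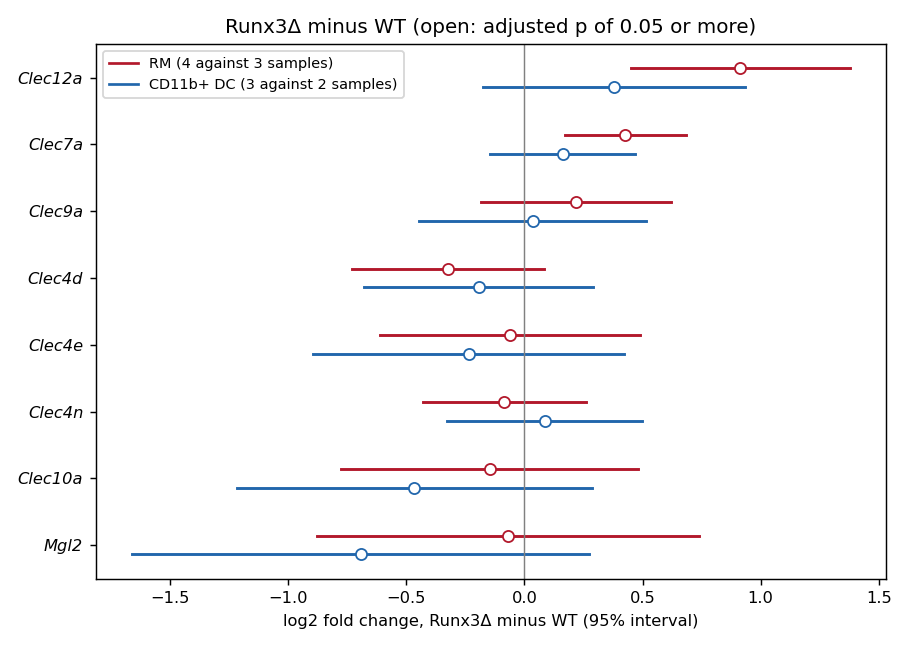
Log2 fold change (horizontal axis, Runx3Δ minus WT) of the 8 receptor genes in RM and in CD11b+ DC, with 95% intervals from the limma fit; all points are open because no adjusted p was under 0.05. The intervals of Clec12a (0.45 to 1.38) and Clec7a (0.17 to 0.68) in RM lie above 0, and all others include 0.

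In CD11b+ DC, Clec12a had levels of 8.26, 8.68 and 8.94 in Runx3Δ cells, against 8.22 and 8.27 in WT cells. The lowest Runx3Δ sample fell between the WT samples and the other Runx3Δ samples lay above them. The difference was 0.38 (SE 0.25, 95% interval -0.18 to 0.93; adjusted p = 0.832 in limma), and with 1 Runx3Δ sample omitted it was 0.56 without replicate 1, 0.35 without replicate 2 and 0.22 without replicate 3. Mgl2 had levels of 10.00, 10.94 and 10.83 in Runx3Δ cells, against 11.53 and 11.04 in WT cells, with no overlap. Its difference was -0.69 (SE 0.44, 95% interval -1.66 to 0.27; adjusted p = 0.821 in limma). Its neighbor Clec10a had 7.23, 8.37 and 8.09 in Runx3Δ cells, against 8.45 and 8.28 in WT cells, where 1 Runx3Δ sample reached the WT range, and differed by -0.47 (SE 0.34, 95% interval -1.22 to 0.29). For both genes Runx3Δ replicate 1 was the lowest sample. Without it the difference was -0.40 for Mgl2 and -0.13 for Clec10a. The Mgl2 difference was -0.45 without WT CD11b+ DC replicate 1, and that of Clec10a was -0.70 without Runx3Δ CD11b+ DC replicate 2.

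The remaining genes differed little in CD11b+ DC relative to their spread. Clec7a differed by 0.16 (95% interval -0.14 to 0.47), Clec4e by -0.24 (-0.89 to 0.42), Clec4d by -0.19 (-0.68 to 0.29), Clec4n by 0.08 (SE 0.19) and Clec9a by 0.03 (SE 0.22). In limma 0 of the 8 genes passed the adjusted threshold and 0 had an unadjusted p under 0.05. Over all rows 0 passed as well (0%), and 2395 of 35556 had an unadjusted p under 0.05. The methods' test called 0 of the 8 genes at the adjusted threshold. At the thresholds of the study 0 of the 8 were higher and 0 lower in Runx3Δ CD11b+ DC, where 0.633% and 1.5% of all rows were. The groups did not overlap in 1 gene (Mgl2), against 25.7% of all rows. The median difference was -0.08, beside 0.01 over all rows. The granulocyte genes averaged 5.44 to 5.73 in Runx3Δ and 5.29 to 5.39 in WT CD11b+ DC, and the 9 monocyte genes 8.10 to 8.79 in Runx3Δ and 8.87 to 9.16 in WT CD11b+ DC. Markers of stroma, 10 genes, averaged 5.56 to 5.86 in Runx3Δ and 5.94 to 6.57 in WT CD11b+ DC. Their ranges overlapped in RM (5.94 to 6.35 in Runx3Δ and 6.27 to 6.90 in WT). A difference above 0 was seen in 1 of the 10 in RM (56.4% of all rows) and in 1 in CD11b+ DC (52.2%). The medians were -0.37 and -0.59. At the thresholds of the study 3 were lower in Runx3Δ RM (0.731% of all rows) and 2 in Runx3Δ CD11b+ DC (1.5%). Fap, at 4.72 in Runx3Δ RM and 5.75 in WT RM (-1.03, adjusted p = 0.00790 in limma), passed the adjusted threshold in RM. The mean levels of markers of B and plasma cells, epithelium, mast cells, endothelium and peritoneal macrophages overlapped between genotypes in both cell types. The part of these markers in the values of the 8 genes was not tested.

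Whether loss of Runx3 acted differently in the 2 cell types was tested as an interaction, the RM difference minus the CD11b+ DC difference. For Clec12a it was 0.53 (SE 0.33, 95% interval -0.19 to 1.26; unadjusted p = 0.133, adjusted p = 1.00 in limma), and for Clec7a 0.26 (SE 0.18; unadjusted p = 0.174 in limma). With 1 sample omitted the Clec12a interaction lay between 0.35 (without Runx3Δ CD11b+ DC replicate 1; unadjusted p = 0.297 in limma) and 0.71 (without WT RM replicate 1; unadjusted p = 0.0491, adjusted p = 1.00 in limma). That of Clec7a was 0.16 without WT RM replicate 2. In limma 0 of the 8 genes had an adjusted p under 0.05 (0% of all rows), and 0 had an unadjusted p of at most 0.05 (3.91% of all rows). So these data do not show that the Clec12a difference in RM exceeded that in CD11b+ DC, and its interval allows both a difference near 0 and one larger than the RM difference itself.

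The genes separated more clearly by cell type. Clec4d and Clec4n, which signal through FcRγ, were higher in RM, and Clec9a was lower. Clec4d had the RM levels given above, all at or above 9.58, against 8.06, 8.37 and 8.96 in Runx3Δ CD11b+ DC and 8.61 and 8.70 in WT CD11b+ DC. No RM sample of either genotype reached down to a CD11b+ DC sample. RM minus CD11b+ DC was 1.29 (SE 0.18; adjusted p = 0.00133) in Runx3Δ mice and 1.42 (SE 0.22; adjusted p = 0.00286) in WT mice, where it was 2.67-fold.

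Clec4n, the mannan receptor, had levels of 10.70, 10.74, 10.67 and 10.81 in Runx3Δ RM and 10.43, 10.96 and 11.05 in WT RM. In CD11b+ DC it had 9.65, 9.92 and 9.98 in Runx3Δ cells and 9.56 and 9.97 in WT cells. Genotypes overlapped and cell types did not, with differences of 0.88 (SE 0.16; adjusted p = 0.00531 in limma) in Runx3Δ mice and 1.05 (SE 0.19; adjusted p = 0.00648 in limma) in WT mice. The call in WT mice was lost without WT CD11b+ DC replicate 1 (0.84, adjusted p = 0.0889 in limma). Clec4e, which lies beside both genes, had levels of 11.17, 12.08, 11.82 and 11.80 in Runx3Δ RM and 12.05, 11.48 and 11.80 in WT RM. Its levels in CD11b+ DC were 10.48, 10.80 and 11.44 in Runx3Δ cells and 11.05 and 11.23 in WT cells. It ran the same way by 0.81 (SE 0.25; adjusted p = 0.0802 in limma) in Runx3Δ mice and 0.63 (SE 0.30; adjusted p = 0.314 in limma) in WT mice, short of the threshold in both. In Runx3Δ mice it passed without Runx3Δ RM replicate 1 (0.99, adjusted p = 0.0262 in limma) or without Runx3Δ CD11b+ DC replicate 3 (1.08, adjusted p = 0.0277 in limma).

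Clec9a had levels of 6.61, 6.62, 6.71 and 6.17 in Runx3Δ RM and 6.79, 6.08 and 6.05 in WT RM, against 7.90, 7.69 and 7.79 in Runx3Δ CD11b+ DC and 7.73 and 7.79 in WT CD11b+ DC. It was lower in every RM sample than in any CD11b+ DC sample, by -1.27 (SE 0.18; adjusted p = 0.00141 in limma) in Runx3Δ mice and -1.45 (SE 0.22; adjusted p = 0.00239 in limma) in WT mice. Clec9a is best known as a receptor of the CD11b-negative cDC1 lineage, and the gate required CD11b. Among 12 cDC1 genes, the chemokine receptor Xcr1 averaged 7.60 and 7.73 in Runx3Δ and WT RM, against 9.26 and 8.76 in Runx3Δ and WT CD11b+ DC, while Cadm1 ran the other way, 8.21 and 8.61 in RM against 6.65 and 6.85 in CD11b+ DC. The mean of the 12 genes was 7.53 to 7.93 and 7.74 to 8.04 in Runx3Δ and WT RM, against 8.13 to 8.33 and 8.21 to 8.38 in Runx3Δ and WT CD11b+ DC. The part of cDC1 markers in the Clec9a difference was not tested.

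Clec10a and Mgl2 were lower in RM in the means of both genotypes. Clec10a had levels of 6.75, 6.81, 7.15 and 7.17 in Runx3Δ RM and 6.58, 7.66 and 7.11 in WT RM, all below the WT CD11b+ DC samples. RM minus CD11b+ DC was -0.93 (SE 0.29; adjusted p = 0.0790 in limma) in Runx3Δ mice and -1.25 (SE 0.34; adjusted p = 0.0589 in limma) in WT mice. With litter as a block the Runx3Δ difference was -0.99 and passed (adjusted p = 0.0245 in limma). With 1 sample omitted it passed without Runx3Δ CD11b+ DC replicate 1 (-1.26, adjusted p = 0.0182 in limma) or WT RM replicate 1 (adjusted p = 0.0474 in limma), and the WT difference passed without WT RM replicate 2 (-1.52, adjusted p = 0.0263 in limma) or Runx3Δ CD11b+ DC replicate 1 (adjusted p = 0.0234 in limma). Mgl2 had levels of 9.75, 9.51, 10.34 and 10.22 in Runx3Δ RM and 9.22, 10.87 and 9.99 in WT RM, and differed by -0.63 (SE 0.37; adjusted p = 0.417 in limma) in Runx3Δ mice and -1.26 (SE 0.44; adjusted p = 0.146 in limma) in WT mice. The WT difference passed without WT RM replicate 2 (-1.68, adjusted p = 0.0332 in limma).

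Clec12a differed between cell types by 0.80 (SE 0.21; adjusted p = 0.0414 in limma) in Runx3Δ mice, with RM higher, and by 0.27 (SE 0.25; adjusted p = 0.711 in limma) in WT mice, or 0.09 without WT RM replicate 1. The call in Runx3Δ mice was narrow, and with litter as a block it was lost (0.79, adjusted p = 0.0886 in limma). It was lost as well without Runx3Δ CD11b+ DC replicate 1 (0.62, adjusted p = 0.158 in limma) or 2 (0.83, adjusted p = 0.115 in limma), and without Runx3Δ RM replicate 2 (0.67, adjusted p = 0.102 in limma), 3 (0.81, adjusted p = 0.0820 in limma) or 4 (0.78, adjusted p = 0.0933 in limma). Omitting WT RM replicate 3 (adjusted p = 0.0570 in limma) or either WT CD11b+ DC sample (adjusted p = 0.0609 in limma), which leaves the difference at 0.80, lost the call too. Ordered by mean, Clec12a stood at 9.42 in Runx3Δ RM, 8.62 in Runx3Δ CD11b+ DC, 8.51 in WT RM and 8.24 in WT CD11b+ DC, and Runx3Δ CD11b+ DC overlapped both neighbors below it. Clec7a stood at 12.23 in Runx3Δ CD11b+ DC, 12.13 in Runx3Δ RM, 12.07 in WT CD11b+ DC and 11.71 in WT RM. Its first 3 groups overlapped and WT RM lay below all of them.

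In Runx3Δ mice 3 of the 8 genes were called higher in RM (3.73% of all rows) and 1 lower (4.12%), and the groups did not overlap in 5 (19.5% of all rows). In WT mice 2 were called higher in RM (3.05% of all rows) and 1 lower (3.02%), and the groups did not overlap in 8 of 8 (32.4% of all rows). Clec4d, Clec4n and Clec9a were called in both genotypes. The comparisons in Runx3Δ and in WT mice use different samples. They are not independent, because they share an estimate of the spread over all arrays and some litters gave samples to both genotypes.

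**Figure D3:**
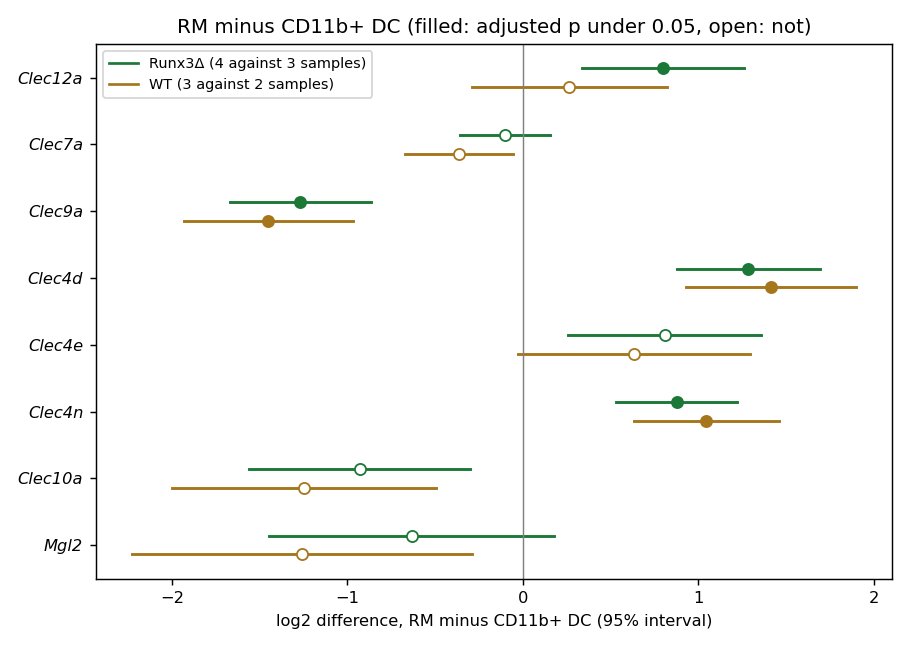
Log2 difference (horizontal axis, RM minus CD11b+ DC) of the 8 receptor genes in Runx3Δ and in WT mice, with 95% intervals from the limma fit; filled points have an adjusted p under 0.05. Clec4d (1.29 and 1.42) and Clec4n (0.88 and 1.05) are filled above 0 and Clec9a (-1.27 and -1.45) below 0 in Runx3Δ and WT mice, and Clec12a (0.80) in Runx3Δ mice alone.

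Some of the genes varied together from sample to sample. For each gene the deviation of the 12 samples from the mean of their cell type was taken, and the 28 pairs were compared, as a description. Clec10a and Mgl2 had the highest correlation (r = 0.943, rho = 0.923; r = 0.912 without the 2 samples farthest from the median), and r was 0.937 once group means were removed. The sample of litter 1 was the lowest for Clec10a in Runx3Δ RM, in WT RM and in Runx3Δ CD11b+ DC, and for Mgl2 in WT RM and Runx3Δ CD11b+ DC. Litter 2 went both ways. For Mgl2 its sample lay 0.84 above the mean of WT RM, as the highest. In Runx3Δ RM its sample lay lowest, with a deviation of -0.45. The part of litter in this likeness was not tested. Probes of these similar genes may also share signal, which was not tested. Clec12a and Clec7a came next (r = 0.893, rho = 0.881; r = 0.793 without the 2 samples farthest from the median), and r was 0.676 once group means were removed, so part of the likeness is their shared difference between genotypes. With group means removed the order of the pairs changed. Clec12a then went with Clec4e (r = 0.933, against 0.389 with them kept), close to the 0.937 of Clec10a and Mgl2, and Clec4d with Clec4e (0.780) and Clec12a with Clec4d (0.722) also stood above Clec12a with Clec7a. Clec4d and Clec4e had r = 0.731 (rho = 0.497), which was 0.433 within RM and 0.996 within CD11b+ DC. The lowest value was that of Clec4n and Clec9a (r = -0.723, rho = -0.706).

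**Figure D4:**
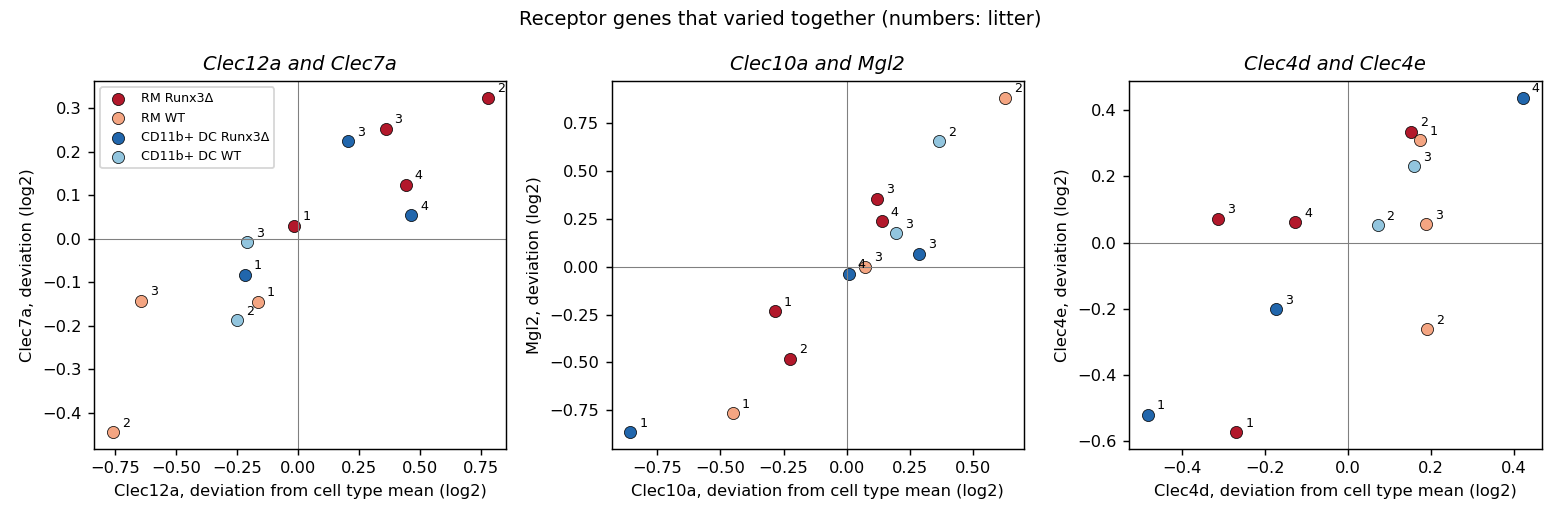
Deviation from the cell type mean (log2) of 1 gene against another in the 12 samples, for the 3 pairs with the highest correlation; colors give the group and numbers the litter. Of the 4 Runx3Δ RM samples, 3 lie at the upper right for Clec12a and Clec7a (r = 0.893), and the 3 samples of litter 1 lie at the lower left for Clec10a and Mgl2 (r = 0.943).

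The genes most like Clec12a were sought among 11706 genes in the same way. The 5 with the highest correlation were Cnn3, an actin-binding calponin (r = 0.970), Hif1a, the oxygen-regulated transcription factor (r = 0.969), Hpse, which cleaves heparan sulfate (r = 0.956), Tarm1, an activating receptor of myeloid cells (r = 0.954), and Nos2, the inducible nitric oxide synthase (r = 0.944). With group means removed their correlations were 0.913, 0.929, 0.925, 0.884 and 0.852. In RM their differences between Runx3Δ and WT were 0.99, 0.62, 0.63, 1.65 and 2.70, with a smallest adjusted p of 0.125 in limma, and in CD11b+ DC 0.54, 0.28, 0.43, 1.06 and 1.72. They were picked from many genes over 12 samples, and the list is a description. The deviations used to pick them kept the difference between genotypes and the spread within groups. Differences in the direction of Clec12a, and high correlations with group means removed, are therefore partly built into the choice.

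Among 29 other C-type lectin genes, all of which had a row, 0 passed the adjusted threshold between genotypes in either cell type. In RM 2 were higher and 1 lower at the thresholds of the study (0.728% and 0.731% of all rows), with a median difference of -0.13, beside 0.03 over all rows. Ly75, which encodes the endocytic receptor DEC-205, averaged 7.01 ± 0.21 (SD, n = 4) in Runx3Δ RM and 6.15 ± 0.27 (SD, n = 3) in WT RM, a difference of 0.86 (adjusted p = 0.274 in limma). Clec4b1 averaged 5.59 in Runx3Δ RM and 6.47 in WT RM (-0.89, adjusted p = 0.283 in limma). In CD11b+ DC 1 was higher and 4 were lower (0.633% and 1.5% of all rows), with a median of -0.14, beside 0.01 over all rows. There Clec4b1 averaged 5.73 in Runx3Δ cells and 6.99 in WT cells (-1.26, adjusted p = 0.278 in limma). Clec4b2 ran the other way, 5.28 in Runx3Δ cells and 4.15 in WT cells (1.13, adjusted p = 0.265 in limma). By cell type, 5 were called higher and 6 lower in RM of Runx3Δ mice (3.73% and 4.12% of all rows), and 6 higher and 7 lower in RM of WT mice (3.05% and 3.02% of all rows). Mrc1, the macrophage mannose receptor, was higher in RM by 2.18 in Runx3Δ mice (adjusted p = 0.000167 in limma) and by 1.24 in WT mice (adjusted p = 0.0185 in limma). Mrc1 averaged 11.53 and 11.80 in Runx3Δ and WT RM, against 9.34 and 10.55 in Runx3Δ and WT CD11b+ DC. Ly75 was lower in RM, with differences of -1.85 in Runx3Δ mice (adjusted p = 0.000295 in limma) and -2.48 in WT mice (adjusted p = 0.000190 in limma).

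The signaling genes downstream of these receptors were measured for 22 of 26. Between genotypes 0 passed the adjusted threshold and 0 met the thresholds of the study in RM, where the median was -0.12, beside 0.03 over all rows. Of the 22 genes, 5 had a difference above 0 in RM (56.4% of all rows). Malt1, a protease of the complex through which Syk-coupled receptors activate NF-κB, differed by 0.26 (adjusted p = 0.521 in limma). Nlrp3 of the same list ran the other way, by -0.30 (adjusted p = 0.571 in limma). In CD11b+ DC 1 was higher and 1 lower at those thresholds (0.633% and 1.5% of all rows). Vav3, a guanine nucleotide exchange factor, averaged 8.50 in Runx3Δ cells and 9.21 in WT cells (-0.71, adjusted p = 0.265 in limma), and Src, a tyrosine kinase, 7.21 in Runx3Δ cells and 6.55 in WT cells (0.66, adjusted p = 0.529 in limma). Fcer1g, which encodes the FcRγ adaptor of Clec4d, Clec4e and Clec4n, averaged 12.76 in Runx3Δ RM against 11.90 in Runx3Δ CD11b+ DC, and 12.79 in WT RM against 11.80 in WT CD11b+ DC. It was called higher in RM in both genotypes (0.86 and 0.99, adjusted p = 0.00168 and 0.00265 in limma). Syk itself was higher in RM by 0.39 in Runx3Δ mice (adjusted p = 0.00721 in limma), and differed by 0.25 in WT mice (adjusted p = 0.142 in limma).

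Of 17 cytokine and enzyme genes that such receptors can induce, 0 passed the adjusted threshold between genotypes. At the thresholds of the study 1 was higher and 4 were lower in Runx3Δ RM, where 0.728% and 0.731% of all rows were, with a median of -0.05, beside 0.03 over all rows. In Runx3Δ CD11b+ DC 1 was higher and 6 were lower, where 0.633% and 1.5% of all rows were, with a median of -0.46, beside 0.01 over all rows. The higher gene was Nos2 in both, at 8.24 ± 0.84 (SD, n = 4) in Runx3Δ RM and 5.54 ± 0.19 (SD, n = 3) in WT RM, and at 6.91 ± 0.92 (SD, n = 3) in Runx3Δ and 5.18 ± 0.34 (SD, n = 2) in WT CD11b+ DC. The chemokine Ccl4 averaged 9.07 in Runx3Δ RM and 10.12 in WT RM (-1.05, adjusted p = 0.283 in limma), and 7.46 in Runx3Δ and 8.53 in WT CD11b+ DC (-1.08, adjusted p = 0.503 in limma).

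**Figure D5:**
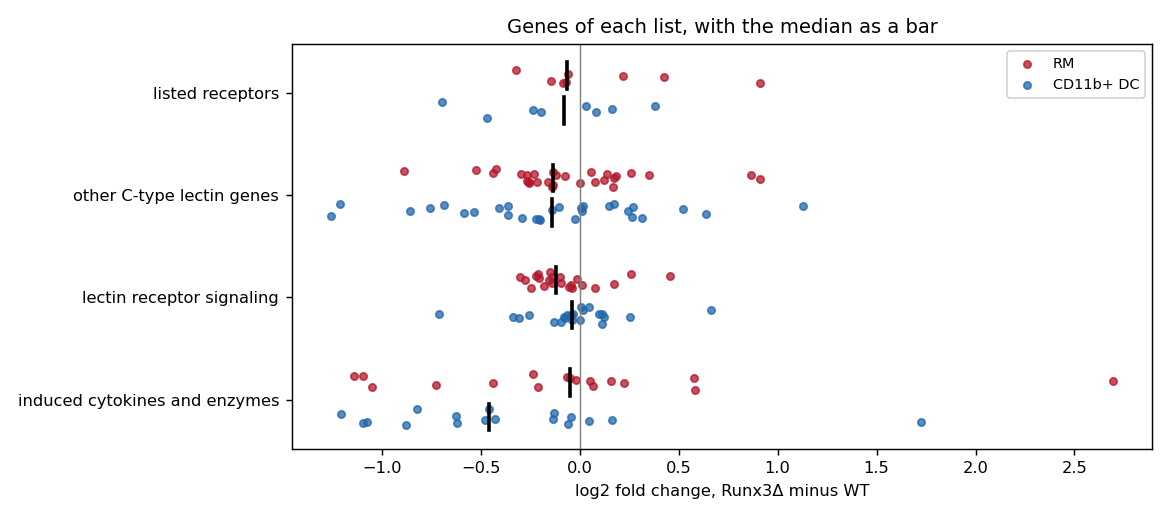
Log2 fold change (horizontal axis, Runx3Δ minus WT) of single genes in 4 lists, with RM and CD11b+ DC drawn apart and the median as a black bar; points are spread vertically only to be seen. The medians of the 8 receptors lie at -0.07 in RM and -0.08 in CD11b+ DC, and that of the cytokines and enzymes at -0.05 in RM and -0.46 in CD11b+ DC.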

How the data were processed

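RNA of sorted cecal RM and CD11b+ DC was hybridized to Affymetrix ST arrays; the methods name an exon array and the platform annotation a gene-level one, with which rows were read. In Partek the authors applied RMA with GC correction, and the deposited log2 intensities were used without further normalization. The submitters' processing notes name build mm9, and no coordinate in this build is given. Of 35556 rows, 21789 carry 1 symbol, 1621 several and 12146 none.

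One limma model (3.58.1; lmFit, eBayes; R 4.3.3) held the 12 arrays as 4 groups, statmod 1.5.0 gave the random block, and p-values were adjusted over all rows (Benjamini-Hochberg, threshold 0.05). The fit was tested on simulated data. Python 3.11.15, pandas 2.3.3 and matplotlib 3.10.9 were used for descriptions and figures. The labels give litter numbers, so samples of 1 number were taken as paired in an alternative with litter as a block. After removal of group means, the correlation between samples of 1 litter had a median of 0.0958 over 13 pairs (-0.0412 to 0.358), and that between litters one of -0.0347 over 40 pairs (-0.257 to 0.203).

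All 8 genes are named, with up to 3 genes of smallest p per list and comparison, from which examples were taken, and the 5 genes most like Clec12a (mean log2 level of at least 5). Genes and lists were chosen with earlier results of these data known. Tyrosine motifs of the proteins were not searched here. Precision is limited by the number of arrays.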

Additional observations from a re-analysis of the deposited data

How the results depend on the processing

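The alternatives concerned the block (litter, fixed or random), the test (2 groups compared alone, the methods' test on 4 or 2 groups, a trended robust prior, weighted arrays), the scale (quantile normalization or centring on the median), the rows (level of 5 or more in a group, a single or averaged row for each gene, no unnamed leading rows, of which there are 6617) and the samples (each left out once). Where 1 WT CD11b+ DC sample was omitted, the lone sample is assumed to vary like the other groups. The interaction could not be fitted on 2 groups.

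In RM and CD11b+ DC the genotype comparisons called 0 of the 8 genes under each of the 25 alternatives. The Clec12a difference in RM ranged over 0.78 to 1.09 (adjusted p from 0.0819 to 0.749), with an unadjusted p under 0.05 in 25 of 25, and that of Clec7a over 0.33 to 0.48. With litter as a replicate block, the Clec12a difference in RM was 0.85 (adjusted p = 0.303); apart from the calls of Clec12a and Clec10a between cell types in Runx3Δ mice, given above, the block changed no other call of the 8 genes. Between cell types in WT mice, 3 of the 8 genes were called, against 1 with 2 groups compared alone, 0 with the methods' test on 2 groups and 2 to 5 with 1 sample omitted (5 without WT RM replicate 2). In Runx3Δ mice 4 were called, against 2 with the methods' test on 2 groups and 6 with 1 row per gene, where Clec10a and Clec4e passed too (adjusted p = 0.0289 and 0.0303). There Clec12a stayed called in 12 of 25 alternatives, Clec4d in 24, and Clec4n and Clec9a in 25; in WT mice Clec4d stayed called in 24, Clec9a in 23 and Clec4n in 22.

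Over all rows, 5 passed in RM, against 0 to 63 under the alternatives (29 without the unnamed leading rows, 63 without WT RM replicate 1), and 0 in CD11b+ DC, against up to 7. Groups of 2 to 4 pools limit every interval.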
